A study of Mus musculus with 6 samples.

Results

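Aminoacyl-tRNA synthetases are the enzymes that attach each amino acid to its tRNA. The mouse nuclear genome encodes separate sets for the cytosol and for the mitochondrion, and their mRNA was followed here in cultured mdx myoblasts given PSB-KD107, an agonist of the receptor Gpr18, or vehicle. The family was taken by gene symbol as 36 of the 47069 genes in the count table, of which 20 were placed in the cytosolic class and 16, whose symbols end in 2, in the mitochondrial class. All 36 were among the 14165 genes that passed the filter on low counts. The family and its division into classes were chosen by measured values of the same contrast, so that the counts and fold changes below are a description of these 6 libraries and not a test of the family.

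The cells were satellite cell-derived myoblasts sorted from dystrophic muscle of mdx mice, which lack dystrophin, so that every library carries the mdx allele and no wild-type library was analysed here. Myoblasts were exposed to 10 μM PSB-KD107 or to vehicle, which was DMSO diluted in aqueous buffer, with 3 libraries in each group. The methods name 3 different mice as the source of the cells in both conditions. The 6 libraries may therefore not come from 6 separate animals. The sample records give an exposure of 2 days, where the methods text says overnight. The records also shorten the agonist's name to PSB-KD-1. The methods describe the study's mdx mice as male, on the C57BL/10 background, and give an age for the animals that were injected but none separately for the donors of these cells. The cells had been sorted on integrin markers and against Sca-1, CD45, CD31 and CD11b.

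Charging takes place in both compartments. Cytosolic synthetases supply the ribosomes that translate nuclear mRNA, and some of them are held together with scaffold proteins in the multisynthetase complex. Mitochondrial synthetases, made in the cytosol and imported, charge the tRNAs for the few proteins encoded in mitochondrial DNA. Most amino acids have a separate enzyme in each compartment, whereas Gars and Kars make both the cytosolic and the mitochondrial glycyl- and lysyl-tRNA synthetase. Several cytosolic synthetase genes are known targets of Atf4, the transcription factor of the amino acid response, which binds C/EBP-ATF response elements.

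The libraries held 30917613 to 48756794 counted fragments. Levels are CPM, counts relative to the library total, scaled with factors from the trimmed mean of M-values (TMM), which lay between 0.974 and 1.03, and 3 counts correspond to at most 0.0962 CPM. The lowest count of any synthetase in any library was 138, so every member lay well above that floor. Of 9 myoblast markers, 9 exceeded 1 CPM in every library, whereas none of 7 fibroblast, 7 immune or 5 endothelial markers did. The summed fibroblast markers spanned 3.55 to 8.19 CPM with vehicle and 2.37 to 14.3 CPM with PSB-KD107, the immune markers reached at most 4.90 and 6.56 CPM, and the endothelial markers at most 1.40 and 1.13 CPM. Tcf21, Adgre1, Ly6g and Emcn were at 0 in all libraries. The myoblast markers summed to 9033 to 9771 CPM with vehicle and 7977 to 9042 CPM with PSB-KD107. Pax7, the satellite cell transcription factor, was lower with PSB-KD107 in every library, with a log2 fold change of −0.90 (adjusted p of 0.209 by edgeR's quasi-likelihood test and 0.00064 by DESeq2), and Myog, an early differentiation factor, was also lower in each treated library. Of the 9 myoblast markers, 3 had log2 fold changes above 0, namely Myf5 (0.73), Des (0.15) and Dag1 (0.04), and 6 below. The part of these markers in the values below was not tested.

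The promoters are shown first because they are a feature of the genes that the choice of the family did not use. RefSeq promoters of GRCm38.p6, from 250 bases before to 50 after each start, were at hand for 13 cytosolic and 14 mitochondrial members. No entry was used for Cars, Hars, Lars, Nars, Rars, Vars, Wars, Hars2 and Pars2. On either strand, the C/EBP-ATF response element TGATGNAA was present in 5 of 13 cytosolic promoters (38.5%), in 0 of 15 mitochondrial promoters and in 3.97% of all 32851 promoters. Its form TGATGCAA, which is contained in the first motif, was found in 4 of the 13 cytosolic promoters (30.8%) and in 0.895% of all promoters. The following stretches, 5′ to 3′ on the strand of the gene, hold the element or its reverse complement in capitals:

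Aars, alanyl-tRNA synthetase, chr8:111033704-111033763, plus strand: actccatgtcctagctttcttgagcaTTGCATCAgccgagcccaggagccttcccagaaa

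Tars, threonyl-tRNA synthetase, chr15:11399659-11399718, minus strand: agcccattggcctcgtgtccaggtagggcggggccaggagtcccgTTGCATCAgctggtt

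Iars, isoleucyl-tRNA synthetase, chr13:49682126-49682155, plus strand: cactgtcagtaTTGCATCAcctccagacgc

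Yars, tyrosyl-tRNA synthetase, chr4:129189895-129189924, plus strand: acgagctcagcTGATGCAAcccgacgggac

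Gars, glycyl-tRNA synthetase, chr6:55037941-55038000, plus strand: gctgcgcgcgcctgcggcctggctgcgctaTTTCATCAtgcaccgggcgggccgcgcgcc

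The elements of Aars, Tars and Gars began 112, 15 and 30 bases before the RefSeq start, and those of Iars and Yars just after it. RefSeq starts can differ from those of GENCODE, which gives the gene coordinates below. The printed Aars stretch lies inside its GENCODE gene, which begins at chr8:111033144. Aars held a further match after its start. The other promoter motifs searched were in both classes. The core recognised by nuclear respiratory factor 1, GCGCANGC, was in 5 of 13 cytosolic promoters (38.5%) and 5 of 15 mitochondrial promoters (33.3%), against 9.95% of all promoters. The ETS core CCGGAAG was in 5 of 13 (38.5%) and 4 of 15 (26.7%), against 8.86%. The next stretches are shown because Sars, with the largest fold change of the family, has a promoter without TGATGNAA, and because Mars2 and Rars2 belong to the mitochondrial class. Capitals mark the ETS core in Sars and the nuclear respiratory factor 1 core in the others:

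Sars, seryl-tRNA synthetase, chr3:108445260-108445319, minus strand: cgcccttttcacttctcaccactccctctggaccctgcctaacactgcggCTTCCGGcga

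Mars2, mitochondrial methionyl-tRNA synthetase, chr1:55237168-55237197, plus strand: accgtccagctGCGCACGCgccctttcccg

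Rars2, mitochondrial arginyl-tRNA synthetase, chr4:34614880-34614939, plus strand: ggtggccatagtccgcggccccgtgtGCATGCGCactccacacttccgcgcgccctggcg

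A match of letters is not a binding site, and these motifs were picked with the fold changes in view. The 5 cytosolic genes with TGATGNAA had log2 fold changes from 0.31 to 0.57, with a median of 0.41. The 8 cytosolic genes whose promoter lacked it spanned −0.17 to 0.99, with a median of 0.12, and the 7 without an entry had a median of 0.19. Sars, at the top of the second range, shows that the element was not shared by all of the genes with large values.

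Cytosolic synthetase mRNA was on the whole higher with PSB-KD107 and mitochondrial synthetase mRNA was not. The median log2 fold change was 0.34 over the 20 cytosolic genes and −0.09 over the 16 mitochondrial genes, beside −0.00074 over all genes tested. The fold change was above 0 for 16 of 20 cytosolic and 6 of 16 mitochondrial genes. The cytosolic values ran from −0.17 (Dars, aspartyl-tRNA synthetase) to 0.99 (Sars), and the mitochondrial values from −0.46 (Lars2, leucyl-tRNA synthetase) to 0.26 (Wars2, tryptophanyl-tRNA synthetase).

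edgeR's quasi-likelihood test called none of the 36 at an adjusted p of 0.05, and called 0.0% of all 14165 genes tested. No member can be called higher or lower by that test, which does not show that the members were unchanged. At an unadjusted p below 0.05, edgeR singled out 7 cytosolic genes as higher, where the share over all genes was 6.47%, and 1 mitochondrial gene as lower, where the share was 2.93%. DESeq2, the package that the study used, called 5 cytosolic genes higher, namely Sars, Nars, Aars, Tars and Yars, and 0 mitochondrial genes. These calls rest on the adjusted p alone, whereas the study's methods also asked for a 2-fold change and a mean FPKM of 1. The largest change of the 5, that of Sars, was 1.99-fold. Sars and Nars were called by DESeq2 with any 1 library left out. They were the only 2 members called without vehicle 2 and without PSB-KD107 library 2, where 184 and 820 of 14573 genes were called. With all 6 libraries DESeq2 called 2.46% of all genes higher and 0.939% lower. The 3 PSB-KD107 values lay wholly above the 3 vehicle values for 11 of 20 cytosolic genes and for 0 of 16 mitochondrial genes, where 9.2% of all genes did so. They lay wholly below for Farsa in the cytosolic class and Mars2 in the mitochondrial class, where 6.59% of all genes did so. These shares come from the contrast on which the family was selected and carry no weight as evidence about it. The smallest two-sided p of an exact permutation test with 3 libraries in each group is 0.1.

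**Figure D1:**
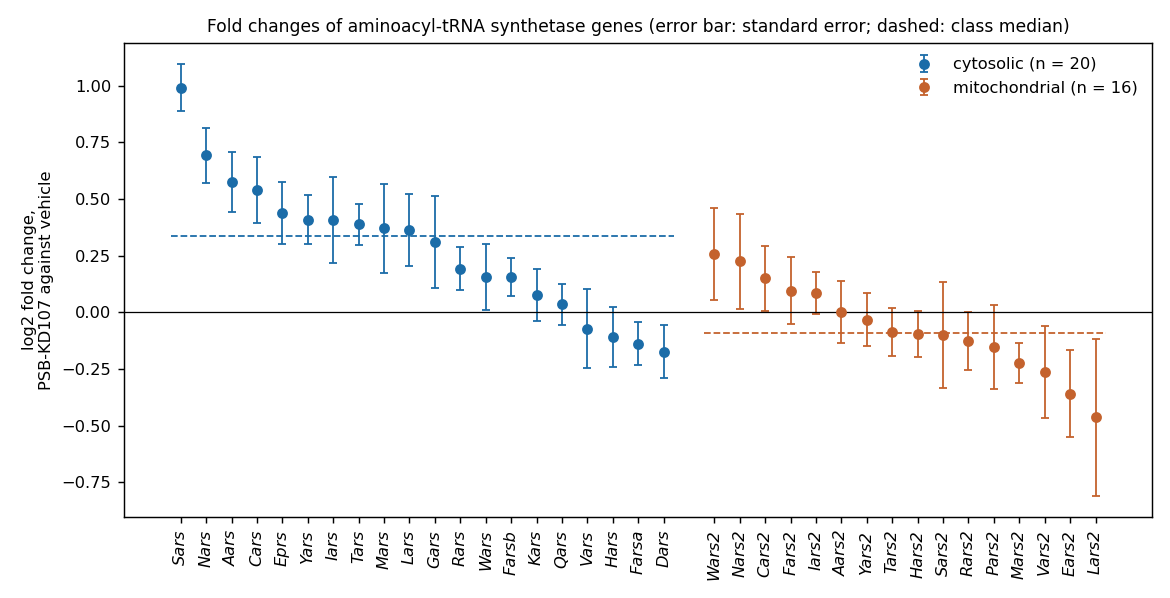
Log2 fold change (PSB-KD107 against vehicle, edgeR) of each synthetase gene, cytosolic in blue (n = 20) and mitochondrial in orange (n = 16), with standard errors as bars and class medians of 0.34 and −0.09 as dashed lines. The cytosolic genes extend up to Sars at 0.99, whereas no mitochondrial gene exceeds 0.26.

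Among the cytosolic enzymes, Sars, which charges tRNA with serine and also supplies the seryl-tRNA from which selenocysteine is made, showed the largest difference. Sars lies at chr3:108424865-108445209 on the minus strand (GRCm38, GENCODE M21). Its level was 143, 139 and 124 CPM in vehicle libraries 1, 2 and 4, and 289, 252 and 268 CPM in the PSB-KD107 libraries of those numbers. The lowest treated library was thus well above the highest vehicle library. The mean went from 136 ± 10.1 to 269 ± 18.5 CPM (SD, n = 3), a log2 fold change of 0.99 (SE 0.10, 1.99-fold), with an adjusted p of 0.0874 by edgeR's quasi-likelihood test and of 2.8e-14 by DESeq2.

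Nars, asparaginyl-tRNA synthetase, came next. Nars stood at 268, 333 and 331 CPM with vehicle and 474, 517 and 515 CPM with PSB-KD107. No treated value approached the vehicle range. The log2 fold change was 0.69 (SE 0.12), with an adjusted p of 0.188 by edgeR's quasi-likelihood test and of 3.8e-05 by DESeq2.

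Aars, which charges alanine and corrects mischarged tRNA through its editing domain, lies at chr8:111033144-111057664. Aars read 236, 287 and 302 CPM with vehicle and 407, 446 and 375 CPM with PSB-KD107. The groups were separate, and vehicle 1 was the lowest library, as it was for Nars. The log2 fold change was 0.57 (SE 0.13), with an adjusted p of 0.272 by edgeR's quasi-likelihood test and of 0.0078 by DESeq2.

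Tars, at chr15:11382301-11399665, had the tightest treated group of the cytosolic genes. Its levels were 115, 129 and 135 CPM with vehicle and 164, 165 and 167 CPM with PSB-KD107. The mean of 126 ± 9.93 CPM (SD, n = 3) became 165 ± 1.84 CPM, a log2 fold change of 0.39 (SE 0.09) with an adjusted p of 0.281 by edgeR's quasi-likelihood test and of 0.0085 by DESeq2.

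Yars and Cars, tyrosyl- and cysteinyl-tRNA synthetase, completed the 6 cytosolic genes with the smallest p. Yars, at chr4:129189760-129219607, was at 96.2, 100.3 and 109 CPM with vehicle and 121, 148 and 135 CPM with PSB-KD107. The fitted difference was 0.41 on the log2 scale (SE 0.11), with an adjusted p of 0.330 by edgeR's quasi-likelihood test and of 0.0455 by DESeq2. Yars and the antisense gene C77080 share exonic sequence, and whether strand was used in counting was not given in the sources used here. Cars, at chr7:143557230-143600090, was at 70.0, 91.6 and 96.5 CPM with vehicle and 121, 136 and 118 CPM with PSB-KD107. Both genes had separate groups. For Cars the log2 fold change was 0.54 (SE 0.15), with an adjusted p of 0.345 by edgeR's quasi-likelihood test and of 0.0570 by DESeq2.

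The 8 enzymes of the multisynthetase complex ranged from Dars at −0.17, the lowest cytosolic value, to Eprs at 0.44. Eprs joins the glutamyl and prolyl enzymes in a single protein. Iars had a log2 fold change of 0.41, Mars (methionyl) of 0.37, Lars (leucyl) of 0.36, Rars (arginyl) of 0.19, Kars (lysyl) of 0.08 and Qars (glutaminyl) of 0.04. Groups did not overlap for Eprs, Iars, Lars and Rars. Mars overlapped, at 70.5, 100.1 and 108 CPM with vehicle against 99.0, 130 and 131 CPM with PSB-KD107, and its exons lie antisense to those of Ddit3. Over the 8 enzymes of the complex the median was 0.28, none was called by edgeR or DESeq2, and the 12 cytosolic genes outside it had a median of 0.35 and held the 5 DESeq2 calls. By structural class of the enzyme, the medians were 0.36 over 9 class I genes and 0.23 over 10 class II genes, and neither division was tested.

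Qars and Vars, glutaminyl- and valyl-tRNA synthetase, had the cytosolic fold changes nearest 0. Qars, at chr9:108507706-108515941, read 108, 108 and 99.2 CPM with vehicle and 111, 100.2 and 113 CPM with PSB-KD107, a log2 fold change of 0.04 (SE 0.09). Vars, at chr17:35000987-35016322, read 107, 153 and 158 CPM with vehicle and 120, 149 and 130 CPM with PSB-KD107, a log2 fold change of −0.07 (SE 0.18). In both genes the treated values lay inside or beside the vehicle range, and the adjusted p was 0.921 for Qars and 0.917 for Vars by edgeR's quasi-likelihood test.

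Phenylalanyl-tRNA synthetase is built of the subunits Farsa and Farsb, and these did not go the same way. Farsa, at chr8:84856989-84869257, was at 63.5, 65.9 and 66.8 CPM with vehicle and 61.5, 53.9 and 62.9 CPM with PSB-KD107. Every treated value was below every vehicle value; the nearest libraries were close, and the log2 fold change was −0.14 (SE 0.10, adjusted p of 0.709 by edgeR's quasi-likelihood test). Farsb was at 85.7, 84.3 and 83.5 CPM with vehicle and 99.0, 95.0 and 88.3 CPM with PSB-KD107, with a log2 fold change of 0.16 (SE 0.08) and an adjusted p of 0.629 by edgeR. The difference between the subunits was not tested, and exons of Farsb overlap those of Sgpp2 on the other strand.

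Gars and Kars, whose products work in both compartments, were unlike each other in spread. Gars, at chr6:55038007-55079500, was at 269, 360 and 363 CPM with vehicle and 431, 483 and 314 CPM with PSB-KD107. Libraries 1 and 2 of the treated group exceeded all vehicle libraries, but treated library 4 did not. The log2 fold change of Gars was 0.31 (SE 0.20, adjusted p of 0.687 by edgeR). Kars, at chr8:111993443-112011323, was at 138, 123 and 119 CPM with vehicle and 140, 118 and 143 CPM with PSB-KD107. Kars showed no separation of the groups, with a log2 fold change of 0.08 (SE 0.11, adjusted p of 0.858 by edgeR).

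Wars (tryptophanyl), Hars (histidyl) and Dars had log2 fold changes of 0.16, −0.11 and −0.17, with overlapping groups. Hars starts 197 bases from Hars2 on the opposite strand, and their exons overlap. Aars, Cars, Ears2 and Vars2 likewise share exonic bases with a gene on the other strand (Gm24103, Gm15580, Ubfd1 and Gm20483). So do Cars2 (Carkd), Fars2 (Lyrm4 and Nrn1), Iars2 (2010103J01Rik and Rab3gap2) and Nars2 (C230038L03Rik).

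**Figure D2:**
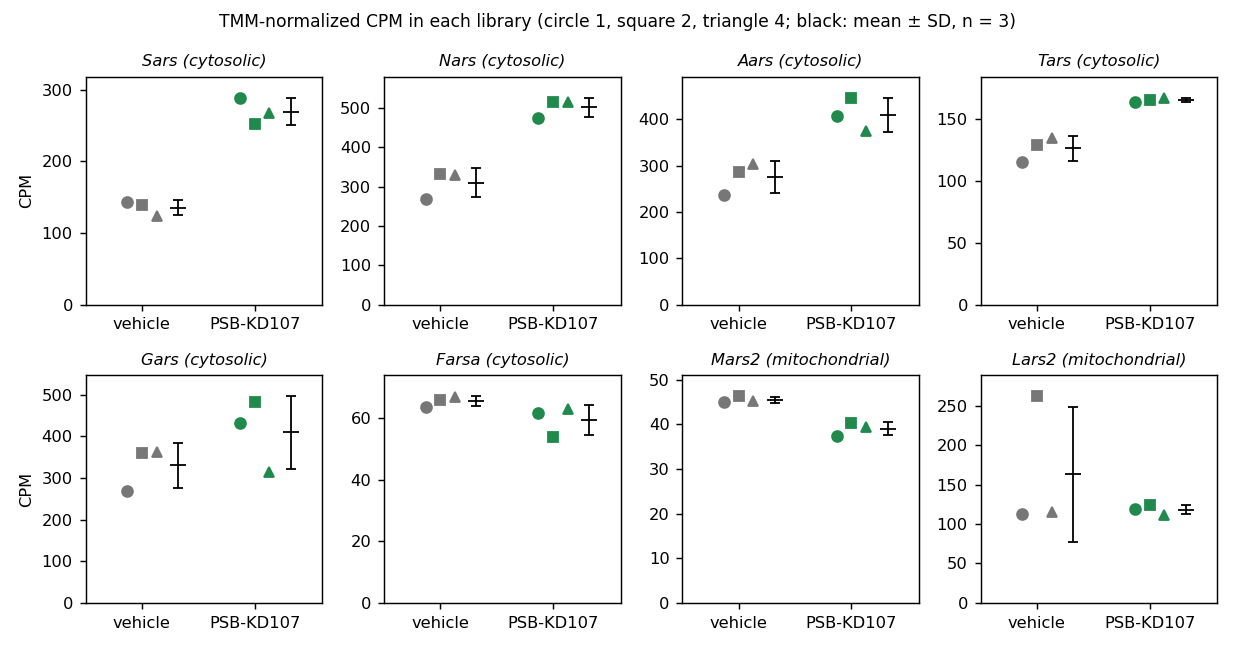
TMM-normalized CPM in each library for 8 synthetase genes, with vehicle in grey, PSB-KD107 in green, libraries 1, 2 and 4 as circles, squares and triangles, and the mean ± SD (n = 3) in black. Sars, Nars, Aars and Tars are separate and higher with PSB-KD107, Farsa and Mars2 are separate and lower, Gars overlaps through treated library 4, and Lars2 has 1 high vehicle library at 262 CPM.

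Among the mitochondrial enzymes, Mars2 had the smallest p. Mars2, a gene at chr1:55237177-55248470, was at 45.0, 46.3 and 45.4 CPM with vehicle and 37.4, 40.3 and 39.4 CPM with PSB-KD107. The vehicle libraries were close to one another and the treated libraries were all below them. The mean went from 45.6 ± 0.693 to 39.0 ± 1.51 CPM (SD, n = 3), a log2 fold change of −0.22 (SE 0.09), with an adjusted p of 0.514 by edgeR's quasi-likelihood test and of 0.0975 by DESeq2.

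Ears2 and Vars2, the mitochondrial glutamyl and valyl enzymes, had lower means but overlapping groups. Ears2, at chr7:122037213-122067263, was at 16.1, 21.4 and 22.5 CPM with vehicle and 14.6, 18.3 and 13.8 CPM with PSB-KD107, a log2 fold change of −0.36 (SE 0.19, adjusted p of 0.626 by edgeR). Vars2, at chr17:35655634-35667592, was at 26.1, 35.3 and 35.2 CPM with vehicle and 26.1, 32.7 and 21.7 CPM with PSB-KD107, a log2 fold change of −0.26 (SE 0.20, adjusted p of 0.730 by edgeR). In both genes vehicle 1 was the library that reached into the treated range.

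Lars2, at chr9:123366927-123462666, had the lowest fold change of the family and 1 library far from the rest. Lars2 was at 113, 262 and 115 CPM with vehicle and 120, 123 and 112 CPM with PSB-KD107. Vehicle 2 stood apart, and the other 5 libraries lay between 112 and 123 CPM. The log2 fold change was −0.46 (SE 0.34, adjusted p of 0.722 by edgeR), and without vehicle 2 it was 0.049.

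Wars2, at chr3:99141068-99239186, had the highest fold change of the mitochondrial class and the lowest level per length of all members. Wars2 was at 6.48, 7.85 and 7.10 CPM with vehicle and 7.63, 10.5 and 7.54 CPM with PSB-KD107. The groups overlapped, and the log2 fold change was 0.26 (SE 0.20, adjusted p of 0.739 by edgeR).

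The other 11 mitochondrial genes had log2 fold changes between −0.15 and 0.23, all with overlapping groups. Nars2 (0.23), Cars2 (0.15), Fars2 (0.10), Iars2 (0.09) and Aars2 (0.00) were at or above 0. Yars2 (−0.03), Tars2 (−0.09), Hars2 (−0.10), Sars2 (−0.10), Rars2 (−0.13) and Pars2 (−0.15) were below it. Nars2 was at 32.9 CPM in treated library 4 and between 19.7 and 22.3 CPM in the other 5 libraries.

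For 17 pairings of a cytosolic with a mitochondrial gene for the same amino acid, the cytosolic log2 fold change was the larger in 14 and the smaller in 3. The median difference was 0.44. Eprs entered with both Ears2 and Pars2, and Fars2 with both Farsa and Farsb, so the pairings are not independent. No pairing was tested, since the classes were chosen on this contrast.

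Serine showed the widest difference, 1.09 on the log2 scale. The ratio of Sars to Sars2 CPM was 16.0, 17.3 and 13.3 with vehicle and 30.2, 27.4 and 45.7 with PSB-KD107. Most of that difference was in Sars, since Sars2 differed by −0.10. The high ratio of treated library 4 came with a Sars2 level of 5.86 CPM, against 8.05 to 9.58 CPM elsewhere.

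Leucine followed with a difference of 0.83, where the ratio of Lars to Lars2 was 1.12, 0.664 and 1.54 with vehicle and 1.57, 1.82 and 1.79 with PSB-KD107. The nearest libraries of the groups differed by little, and the low ratio of vehicle 2 is the library in which Lars2 stood apart. For glutamate, the ratio of Eprs to Ears2 was 15.0, 14.4 and 14.4 with vehicle and 26.2, 23.0 and 27.4 with PSB-KD107, a difference of 0.80. Both partners contributed, with Eprs at 0.44 and Ears2 at −0.36.

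For methionine, the ratio of Mars to Mars2 was 1.57, 2.16 and 2.37 with vehicle and 2.65, 3.23 and 3.32 with PSB-KD107. For proline, the ratio of Eprs to Pars2 was 49.1, 65.1 and 59.7 with vehicle and 87.3, 95.2 and 80.0 with PSB-KD107. Both differences in fold change were 0.59. At the other end, the difference was −0.23 for Farsa and Fars2, −0.10 for Wars and Wars2 and −0.01 for Hars and Hars2, the pair that shares a start region.

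**Figure D3:**
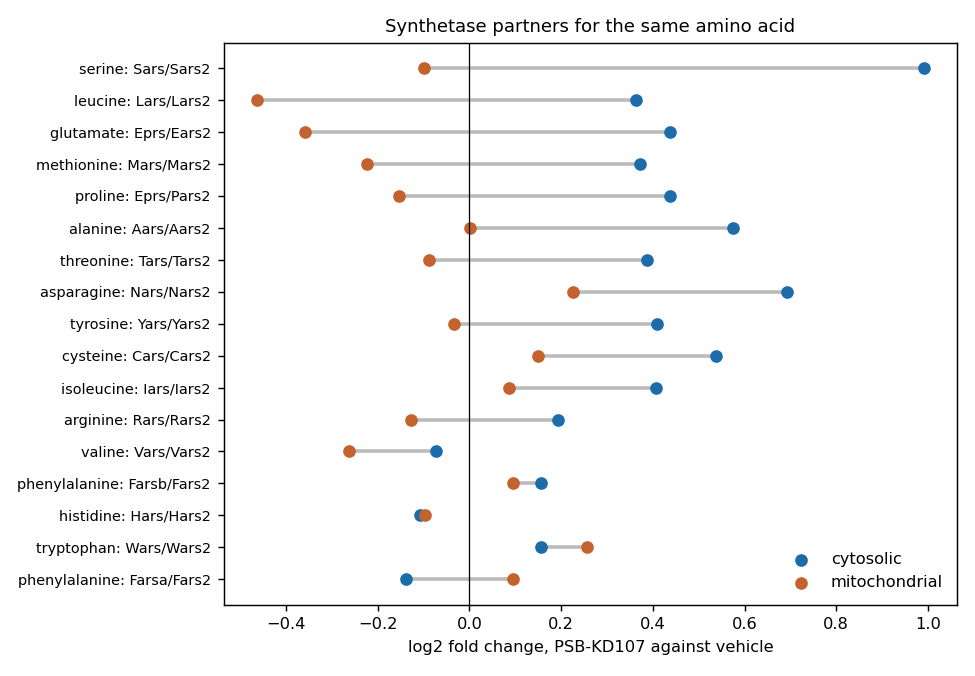
Log2 fold change (PSB-KD107 against vehicle) of the cytosolic gene (blue) and the mitochondrial gene (orange) for each amino acid, joined by a grey line and ordered by their difference. The blue point lies to the right in 14 of 17 pairings, by 1.09 for serine, and to the left in 3.

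Summed over the class, the cytosolic synthetases held 2769, 3311 and 3370 CPM in vehicle libraries 1, 2 and 4 and 3966, 4314 and 3897 CPM with PSB-KD107. Every treated sum was above every vehicle sum. The mitochondrial sums were 497, 687 and 535 CPM with vehicle and 519, 531 and 501 CPM with PSB-KD107, with the vehicle 2 value carrying its Lars2. The cytosolic to mitochondrial ratio was 5.58, 4.82 and 6.30 with vehicle and 7.65, 8.12 and 7.77 with PSB-KD107. Without Lars2 the ratio was 7.21, 7.79 and 8.01 with vehicle and 9.94, 10.6 and 10.0 with PSB-KD107, so the groups stayed apart. In bulk RNA, a different amount of synthetase mRNA per cell and a different mixture of cells cannot be told apart.

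Library by library, the median cytosolic gene deviated from its vehicle mean (log2 CPM) by −0.15, 0.06 and 0.10 in vehicle 1, 2 and 4. The cytosolic medians in the treated libraries were 0.25, 0.45 and 0.26. The mitochondrial medians were −0.06, 0.06 and 0.01 with vehicle and −0.01, −0.06 and −0.16 with PSB-KD107. Vehicle 1 was the lowest of the 3 vehicle libraries for 15 of 20 cytosolic genes and 11 of 16 mitochondrial genes, against 43.9% of all genes, and without it the cytosolic median fold change was 0.19.

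**Figure D4:**
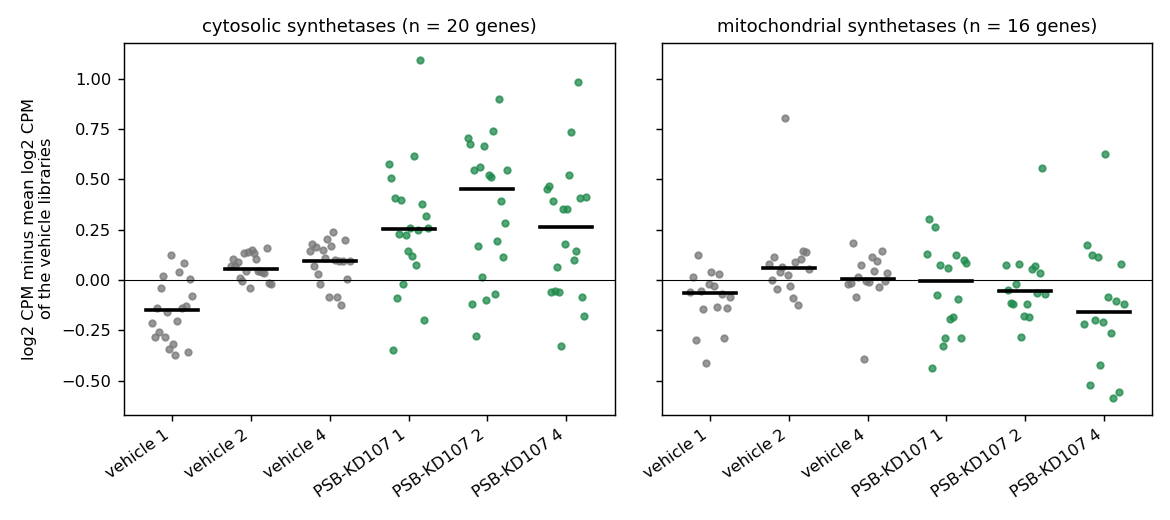
Log2 CPM of each synthetase gene minus its mean over the vehicle libraries, for the cytosolic (left) and mitochondrial (right) genes in each library, with the class median as a black bar. Cytosolic medians are −0.15 to 0.10 with vehicle and 0.25 to 0.45 with PSB-KD107, and mitochondrial medians are −0.06 to 0.06 and −0.16 to −0.01.

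The classes also differed in level, a property that the choice of the family did not use. Per kilobase of exon in GENCODE M21, cytosolic levels in vehicle libraries ran from 13.1 CPM per kb (Cars) to 106 CPM per kb (Gars), with a median of 27.8. Mitochondrial levels ran from 1.20 CPM per kb (Wars2) to 14.7 CPM per kb (Lars2), with a median of 3.96. The ranges met only where Lars2 and Rars2 (13.3 CPM per kb) lay among the lowest cytosolic genes, Cars and Farsa (14.4 CPM per kb), and 18 of 20 cytosolic genes exceeded every mitochondrial gene. Within pairings, the cytosolic gene was 2.01-fold (Lars over Lars2) to 23.3-fold (Nars over Nars2) above its partner per kilobase, with a median of 5.56-fold. The Lars2 mean includes vehicle 2, at 262 CPM against 113 and 115 CPM in the other vehicle libraries. The next lowest ratio was 2.28-fold (Yars over Yars2). Exon lengths were summed over all annotated transcripts, so a gene with a long minor transcript is placed too low.

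**Figure D5:**
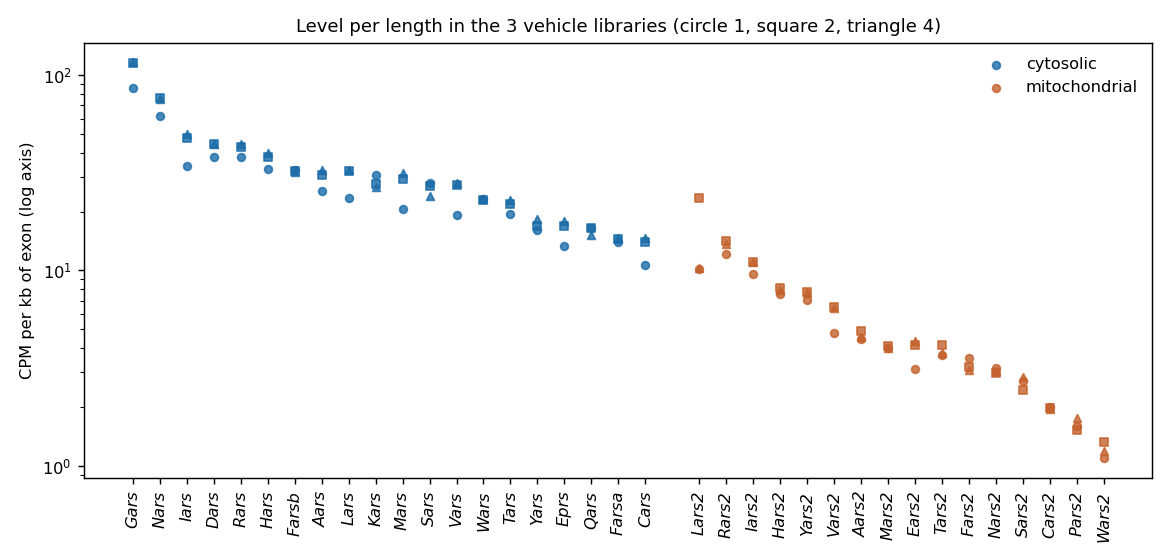
CPM per kilobase of exon (log axis) of each synthetase gene in the 3 vehicle libraries, cytosolic in blue and mitochondrial in orange, with libraries 1, 2 and 4 as circles, squares and triangles. Cytosolic means run from 13.1 (Cars) to 106 (Gars) and mitochondrial means from 1.20 (Wars2) to 14.7 (Lars2). The Lars2 mean includes its high value in vehicle 2.

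The other genes of tRNA charging had fold changes nearer 0 than those of the cytosolic enzymes. Of 32 listed, 31 were tested and their log2 fold changes had a median of 0.05, 19 being above and 12 below 0. Neither edgeR nor DESeq2 called any of the 31. Groups did not overlap for 4 that were higher (Guf1, Qrsl1, Pstk and Sephs2) and 3 that were lower (Eef1a1, Mtfmt and Aarsd1) of the 31, close to the shares of 9.2% and 6.59% over all genes. The scaffold genes of the multisynthetase complex, Aimp1, Aimp2 and Eef1e1, had log2 fold changes of 0.16 (SE 0.11), 0.02 (SE 0.20) and −0.01 (SE 0.11), below the median of 0.28 of the enzymes they hold. Among factors that deliver tRNA to cytosolic ribosomes, Eefsec, the elongation factor for selenocysteine, was at −0.21 (SE 0.16) and Eef1a1, the general elongation factor, at −0.09 (SE 0.13). In the mitochondrial delivery list, Mtfmt, which formylates the initiator methionyl-tRNA, was at −0.30 (SE 0.17) and Qrsl1, a subunit of the glutamyl-tRNA amidotransferase, at 0.34 (SE 0.21).

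In the list for editing, recycling and selenocysteine, Pstk, the kinase that phosphorylates seryl-tRNA on the way to selenocysteine, read 11.9 ± 1.46 CPM with vehicle and 15.3 ± 0.980 CPM with PSB-KD107 (SD, n = 3), a log2 fold change of 0.36 (SE 0.15). The homologue Tarsl2 was at 0.21 (SE 0.15).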

How the data were processed

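RNA of mdx myoblasts was sequenced in 6 libraries. The authors deposited raw counts of fragments per gene in 1 table, after alignment with STAR to mm10, and the counting program and its strand setting were not given in the sources used here. Its columns carry the numbers 1, 2 and 4, and the sample records 1, 2 and 3, so libraries 4 were assigned to a group only. Genes were filtered with filterByExpr, scaled by TMM and tested with edgeR 4.0.16 (glmQLFit and glmQLFTest, treatment only, R 4.3.3), with Benjamini-Hochberg adjustment over 14165 genes and a threshold of 0.05. DESeq2 1.42.0, limma 3.58.1 (voom), other filters and scaling, a replicate block and each library left out were alternatives. Deviations of same-numbered libraries correlated at 0.63, 0.50 and −0.13, and those of vehicle 4 with PSB-KD107 library 2 at 0.64. The methods name 3 mice for both conditions, which leaves room for a pairing, but whether same-numbered libraries came from the same mouse was not given in the sources used here. These correlations cannot settle it, and the main test used no block. The fits were tested on simulated counts.

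The members, lists, motifs and the rule for full values (smallest p, fold changes nearest 0, extreme levels, dual enzymes, separated genes against their class) were chosen with earlier results of these data known. Coordinates and exon lengths are those of GENCODE M21 (GRCm38), and promoters those of RefSeq (GRCm38.p6). Protein features were not analysed here. Values of some listed pathway genes are not reported here. Counting error is small at high counts, so p-values there measure mainly the spread between the libraries. For members with few counts, such as Pars2 (138 to 221 counts), counting error is a larger share of that spread.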

Additional observations from a re-analysis of the deposited data

How the results depend on the processing

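The number of members called at an adjusted p of 0.05 was 0 with edgeR under TMM or RLE factors, under either other filter and with any library left out, and 0 with limma-voom. Over all genes those settings also called 0, apart from 8 of 24186 with no filter on low counts. It was 5 with DESeq2 and 2 to 5 with DESeq2 when 1 library was left out (2 without vehicle 2 or treated library 2, and 3 without treated library 1), an alternative chosen after seeing the data. Nars and Sars were in each of those DESeq2 sets. With a replicate block over libraries 1 and 2 edgeR called 12 members, and 2456 of all 14400 genes tested, with 1 residual degree of freedom. The same 4 libraries without the block gave 0, and the replicate block over all 6 libraries gave 0. The median cytosolic log2 fold change of 0.34 was 0.19 to 0.41 with 1 library left out, lowest without vehicle 1, 0.32 with DESeq2, and 0.18 to 0.39 with DESeq2 and 1 library left out. The mitochondrial median of −0.09 was −0.12 to −0.03 with 1 library left out in edgeR. Of the 16 mitochondrial genes, those wholly lower with PSB-KD107 numbered 2 with RLE factors (7.3% of all genes) and 3 with no filter on low counts (5.06%). They numbered 3 when genes under a mean FPKM of 1 were dropped (7.78%) and 2 in the 4 libraries (14.7%). With 1 library left out they numbered 2 to 7, where 8.56% to 20.0% of all genes were wholly lower, against 6.59% with all libraries. The counts were 6 without vehicle 1 (20.0%) and 7 without treated library 2 (15.1%). Mitochondrial genes wholly higher numbered 2 in the 4 libraries, where 17.6% of all genes were, and 0 to 2 with 1 left out, where 10.3% to 18.3% were. Cytosolic genes wholly lower numbered 1 to 4 with 1 left out, beside the same 8.56% to 20.0% of all genes. The 4 of 20 without vehicle 1 equal the 20.0% of all genes in that setting. Lars2, at −0.46 with all libraries, ranged from −0.68 without vehicle 1 to 0.049 without vehicle 2, where DESeq2 gave 0.037. The cause of these shifts was not tested. Single fold changes were followed for the members chosen by the rule for full values, not for the whole family. Of these values under the alternatives, 286 kept their direction and call or were of genes within 1 SE of 0 with all libraries. Another 32 passed the threshold where edgeR with all libraries and no block had not. Some of those 32 were edgeR fits with the replicate block over libraries 1 and 2.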
